A study of Mus musculus with 8 samples.

Results

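Expression of 10 genes of interleukin-6 (IL-6) family signaling was followed in the esophagi of mice without monoacylglycerol lipase (MGL), the enzyme that degrades the endocannabinoid 2-arachidonoylglycerol, and of wild-type (WT) mice. The genes were chosen by symbol and by role in the pathway: the cytokines Il6 and Lif, the receptor chains Il6ra, Il6st and Osmr, the transcription factor Stat3, and the feedback inhibitors Socs1, Socs2, Socs3 and Cish. All 10 were found among the 32849 gene symbols of the count table, and 9 of them were among the 14864 genes that had enough counts to be tested. Il6 did not.

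The series holds 4 MGL KO and 4 WT libraries of healthy whole esophagus, made from poly(A)-selected RNA of frozen tissue. MGL KO mice carry a germline knockout of Mgll, were given no treatment named in the labels, and were bred alongside WT littermates. The study used adult mice of both sexes, and the labels give neither sex nor age for a single library. The labels number the libraries without tying them to animals, so p-values measure the spread between these libraries. Total counts lay between 13479069 and 17090152, so that a count of 0 allows for up to 3 counts, or 0.167 to 0.271 normalized CPM, by counting error alone. CPM are counts per M counts of a library, after scaling of the library sizes. Mgll checked the labels, with 12.6 to 16.0 normalized CPM in MGL KO and 66.6 to 88.3 in WT libraries. Marker genes of squamous epithelium and of skeletal muscle, which forms much of the wall of the mouse esophagus, were present in every library. Their levels differed widely within each genotype. Genes of differentiated squamous epithelium summed to 2172 to 13186 normalized CPM in MGL KO and 2976 to 14174 in WT libraries. Those of skeletal muscle summed to 31530 to 78802 in MGL KO and 41135 to 66992 in WT libraries. The part of these differences in the genes followed here was not tested. MGL KO 4 stood apart, since 5 genes of airway secretory cells summed to 7721 normalized CPM in it and to at most 47.1 elsewhere, and 6 genes of airway ciliated cells to 464.2 against at most 15.9. WT 1 had the largest sum of 5 macrophage genes, 370.4 normalized CPM against 104.2 to 223.5 in the other 7 libraries. In whole tissue, fewer cells of a type and less RNA per cell cannot be told apart.

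Cytokines of the IL-6 family signal through the shared chain gp130, encoded by Il6st, together with a further receptor chain. Examples of the latter are IL-6Rα for IL-6, LIFR for LIF and OSMR for oncostatin M. Bound gp130 activates Janus kinases, which phosphorylate STAT3. STAT3 then enters the nucleus and switches on target genes, among them Socs3, whose product binds gp130 and its kinases and ends the signal. Socs2 and Cish are best known as targets and inhibitors of STAT5, downstream of growth hormone, prolactin and several hematopoietic cytokines. In squamous epithelia the pathway is known for its part in wound responses and in the growth of basal cells.

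STAT proteins bind DNA as dimers at sites of the form TTCNNNGAA. The promoters of Socs3 and Cish, the classical feedback genes of STAT3 and STAT5, are shown because both hold this motif. The sequences are from RefSeq on GRCm38.p6, run 5′ to 3′ on the gene's strand from 250 bases before the transcription start to 20 bases after it, and have each match in capitals.
Socs3, chr11:117969347-117969616, reverse strand: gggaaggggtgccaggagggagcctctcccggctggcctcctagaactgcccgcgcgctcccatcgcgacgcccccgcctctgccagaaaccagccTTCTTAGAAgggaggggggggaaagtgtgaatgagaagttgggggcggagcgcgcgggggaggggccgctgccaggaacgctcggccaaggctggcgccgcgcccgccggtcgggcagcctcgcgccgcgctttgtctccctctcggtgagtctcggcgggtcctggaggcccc
Cish, chr9:107296409-107296678, forward strand: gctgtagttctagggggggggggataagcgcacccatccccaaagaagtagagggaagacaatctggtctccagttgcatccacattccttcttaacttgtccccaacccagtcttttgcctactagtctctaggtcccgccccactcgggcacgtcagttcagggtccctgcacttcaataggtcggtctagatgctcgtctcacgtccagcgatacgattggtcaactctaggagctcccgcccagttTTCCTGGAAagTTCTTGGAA

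The match of Socs3, TTCTTAGAA, began 154 bases before the start. Those of Cish were TTCCTGGAA, which began at the start base itself, and TTCTTGGAA, which began 11 bases after it. The motif reads the same on both strands, so each match counts for both. A RefSeq window of 300 bases was found for 9 of the 10 genes, and the windows of the other 7 genes held no match. Of 32851 windows in the table, 2726 (8.30%) held at least 1 match and 150 (0.457%) held 2 or more. These matches describe letters in the window and do not show binding.

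The levels of the 10 genes were compared per exon length, as normalized CPM per kilobase of exon over the 8 libraries. Il6st was first with 23.2 ± 1.98 (SD, n = 8), followed by Stat3 with 17.2 ± 0.68, Socs3 with 13.1 ± 3.11 and Il6ra with 12.4 ± 2.19. A lower set began with Osmr at 1.67 ± 0.26, Socs2 at 1.32 ± 0.69 and Cish at 1.29 ± 0.40, and ended with Socs1 at 0.67 ± 0.10 and Lif at 0.47 ± 0.12. Il6 was last at 0.027 ± 0.041. The ranges over libraries of neighbors in this order did not overlap between Il6st and Stat3, between Il6ra and Osmr, and between Lif and Il6. All other neighbors overlapped, and Socs3 lay above Il6ra in 5 of 8 libraries, as Socs2 did above Cish. The order was the same with the length of the longest transcript in place of all exons.

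**Figure D1:**
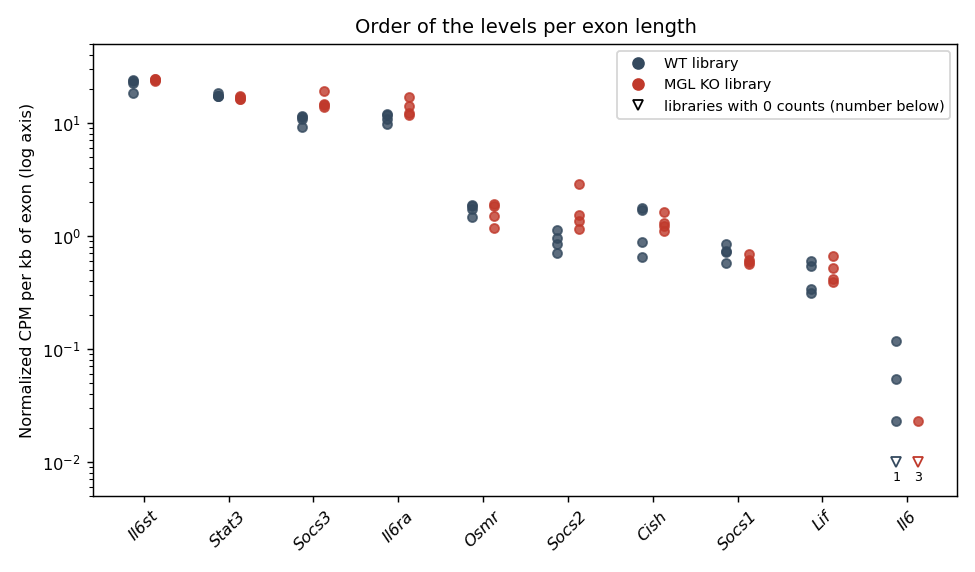
Normalized CPM per kilobase of exon (log axis) of the 10 genes, ordered by their mean over the 8 libraries, with 1 point per library and open triangles for libraries with 0 counts. The genes fall into an upper set of 4 between Il6st and Il6ra, a lower set of 5 between Osmr and Lif, and Il6 at a few counts or none.

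None of the 9 tested genes differed between MGL KO and WT esophagi at an adjusted p under 0.05 (quasi-likelihood test of edgeR, adjusted over all 14864 genes by Benjamini-Hochberg), a threshold that 0.0471% of all tested genes passed, 0.0202% as higher and 0.0269% as lower. An unadjusted p under 0.05 was found for 3 of the 9, namely Il6ra, Socs2 and Socs3, all with a positive log2 fold change, beside 8.65% of all tested genes (4.35% positive and 4.29% negative). The groups did not overlap for 3 of the 10 genes, with Socs2 and Socs3 above and Stat3 below the WT libraries, beside 6.02% of all tested genes. Which genes did not overlap depended on the scaling of the libraries: with library size alone Socs2 was the 1 gene left, and with upper quartile factors Socs3 and Stat3 were left. The median log2 fold change of the 9 genes was 0.12, and that of all tested genes was 0.02.

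**Figure D2:**
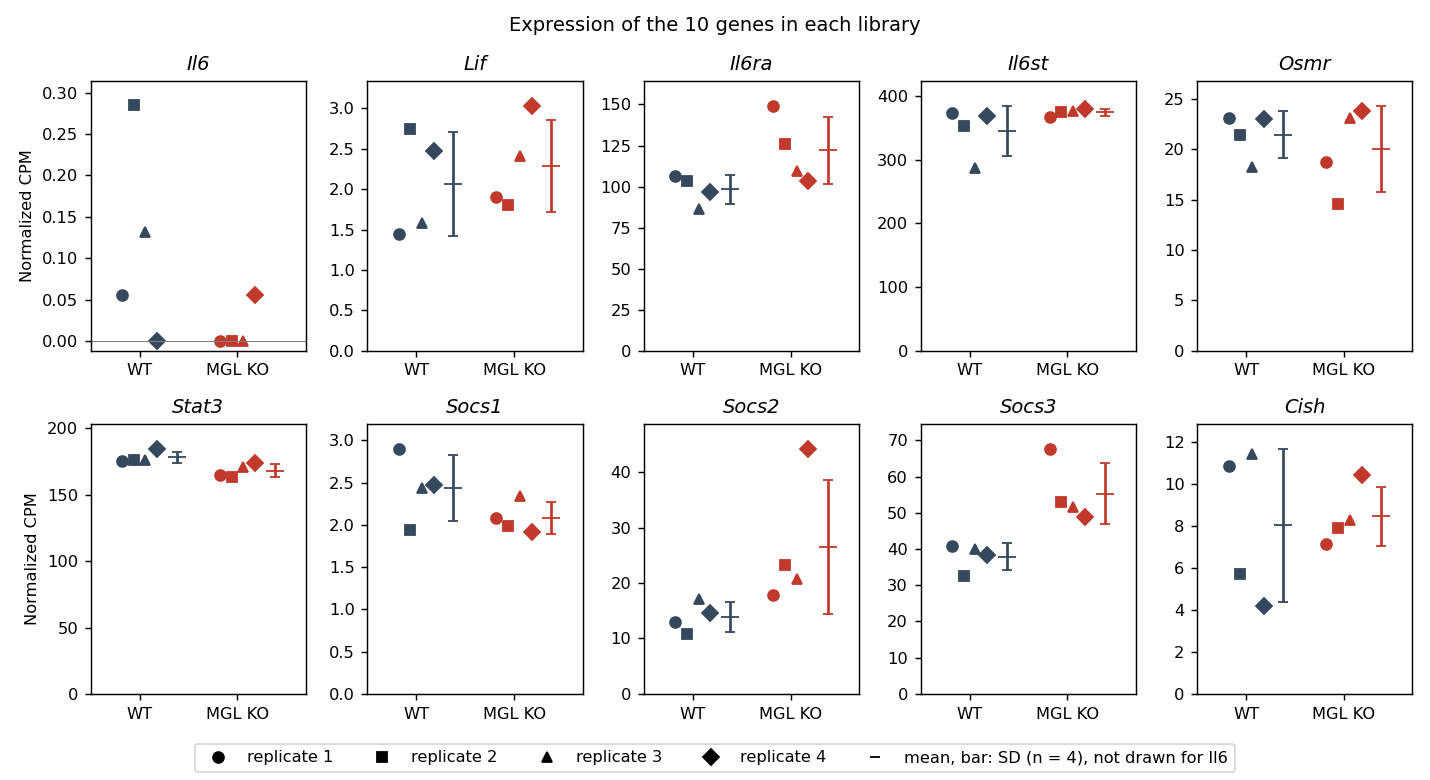
Normalized CPM (vertical axis, from 0) of each of the 10 genes in every library, with 1 symbol per replicate number; WT libraries are dark blue and MGL KO libraries red, and the bar beside the symbols gives the mean and SD (n = 4) except for Il6. Socs2 and Socs3 sit higher in every MGL KO library than in any WT library, Stat3 sits slightly lower, and the other 7 genes overlap; with library size alone Socs3 and Stat3 also overlap, and with upper quartile factors Socs2 does.

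**Figure D3:**
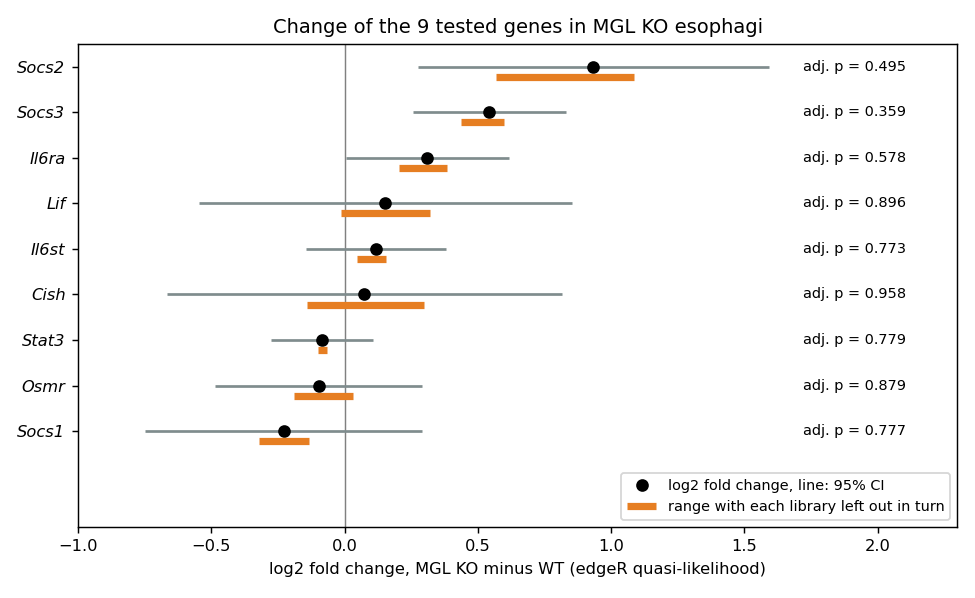
Log2 fold change of the 9 tested genes (horizontal axis, MGL KO minus WT; points), with the 95% confidence interval (grey line), the range when each library was left out in turn (orange bar) and the adjusted p at the right. The intervals of Socs2, Socs3 and Il6ra lie above 0, and the leave-one-out ranges of Lif, Cish and Osmr cross 0.

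Of the cytokines, Il6 (chromosome 5 of GRCm39, 30218112 to 30224979, forward strand) was close to the limit of detection. It was read 0, 0, 0 and 1 times in MGL KO 1 to 4 and 1, 5, 2 and 0 times in WT 1 to 4. WT 2, with 0.285 normalized CPM, was the 1 library with more than 3 counts, so a difference in Il6 was not detectable at this depth. The two-sided exact permutation test gave p = 0.257. Lif, a cytokine for stem cell and immune functions (chromosome 11, 4207557 to 4222514, forward strand), was at 1.90, 1.80, 2.40 and 3.03 normalized CPM in MGL KO 1 to 4 and at 1.45, 2.74, 1.58 and 2.48 in WT 1 to 4. These values rest on 20 to 54 counts per library and overlapped. Its log2 fold change of 0.15 had a 95% confidence interval from -0.55 to 0.85 (adjusted p = 0.896), and it turned to -0.013 without MGL KO 4.

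Il6st, the gene for gp130 (chromosome 13, 112600604 to 112646620, forward strand), varied little in MGL KO esophagi. It was at 367.8, 374.5, 377.4 and 379.6 normalized CPM in MGL KO 1 to 4 and at 373.2, 352.6, 286.8 and 368.9 in WT 1 to 4. WT 3 was the lowest library, and the other 7 lay close together. The coefficient of variation was 1.36% in MGL KO and 11.6% in WT libraries. The genotypes differed by a log2 fold change of 0.12 (95% confidence interval -0.14 to 0.38, adjusted p = 0.773), or 0.046 without WT 3.

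Il6ra encodes the IL-6 receptor chain that binds the cytokine (chromosome 3, 89771366 to 89820719, reverse strand). Its expression was 149.3, 125.9, 109.6 and 103.2 normalized CPM in MGL KO 1 to 4 and 106.7, 103.7, 86.5 and 96.6 in WT 1 to 4. All 4 MGL KO libraries were above the WT median of 100.1, and the groups overlapped by MGL KO 4 lying under WT 1 and WT 2. The log2 fold change was 0.31 (standard error 0.14, 95% confidence interval 0.01 to 0.62), with an unadjusted p of 0.0469 and an adjusted p of 0.578 from the quasi-likelihood test. Leaving out any single library gave values between 0.20 and 0.38, with the lowest value and an unadjusted p of 0.138 without MGL KO 1. The unadjusted p was under 0.05 in 3 of these 8 fits, those without MGL KO 3, MGL KO 4 or WT 1, and in 10 of the 20 alternatives in all.

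Osmr, the oncostatin M receptor chain (chromosome 15, 6843053 to 6904450, reverse strand), was at 18.7, 14.5, 23.1 and 23.8 normalized CPM in MGL KO 1 to 4 and at 23.1, 21.5, 18.2 and 23.0 in WT 1 to 4. MGL KO 2 was the lowest library and MGL KO 4 the highest, so the WT values lay inside the MGL KO range. MGL KO differed from WT by a log2 fold change of -0.10 (95% confidence interval -0.49 to 0.29, adjusted p = 0.879) and by 0.031 without MGL KO 2. Per exon length, Il6st and Il6ra made up 45.6% to 49.7% and 22.6% to 32.4% of the summed level of the 8 receptor genes measured, and Osmr 2.32% to 3.84%.

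Stat3, on the reverse strand of chromosome 11 from 100775924 to 100830450, had the narrowest range, relative to its level, of the 10 genes over the 8 libraries together. It was at 164.8, 163.4, 170.9 and 173.8 normalized CPM in MGL KO 1 to 4 and at 175.7, 176.2, 176.5 and 184.7 in WT 1 to 4. Every MGL KO library lay under every WT library, by a mean of 168.3 ± 4.94 against 178.3 ± 4.30 (SD, n = 4), beside 3.3% of all tested genes that lay apart in this direction. The two-sided exact permutation test gave p = 0.0286, the smallest that 4 libraries against 4 allow. The quasi-likelihood test, which takes part of its spread from all genes, gave a log2 fold change of -0.08 (95% confidence interval -0.27 to 0.11, adjusted p = 0.779). The groups overlapped when the counts were scaled by library size alone. Stat3 shares 142 bases of exon with Stat5a on the opposite strand, and the use of strand in counting is not given in the sources used here. Among the genes with profiles most like that of Stat3 were Ap2a1 and Osbp, which differed from it by 0.030 and 0.043 (root mean square difference of centered log2 CPM over 8 libraries, among 11568 genes of at least 5 normalized CPM). The SD of Stat3 itself on that scale was 0.057.

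Among the feedback inhibitors, Socs3 (chromosome 11, 117856905 to 117860898, reverse strand), the gene whose promoter is shown above with 1 match, had the smallest p-value of the 10 genes. It was at 67.7, 52.9, 51.5 and 49.0 normalized CPM in MGL KO 1 to 4 and at 40.8, 32.5, 39.97 and 38.5 in WT 1 to 4. The lowest MGL KO library lay above the highest WT library, beside 2.72% of all tested genes that lay apart in this direction, and MGL KO 1 was the highest. The means were 55.3 ± 8.43 in MGL KO and 37.9 ± 3.76 in WT esophagi (SD, n = 4), a fitted fold change of 1.46 with a 95% confidence interval from 1.19 to 1.78. On the log2 scale the change was 0.54 (standard error 0.13), with an unadjusted p of 0.0021 and an adjusted p of 0.359 from the quasi-likelihood test, and the two-sided exact permutation p was 0.0286. Leaving out any single library gave values between 0.44 and 0.60. DESeq2, which called 133 genes in all, gave Socs3 an adjusted p of 0.0317, the 1 setting of 20 in which any of the 10 genes passed. The groups of Socs3 overlapped when scaled by library size alone, where the log2 fold change was 0.50.

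The immediate early genes respond within minutes to growth factors and stress. The sum of 10 of them was 751.1, 589.5, 441.2 and 501.2 normalized CPM in MGL KO 1 to 4 and between 317.0 and 370.9 in WT libraries, and 7 of the 10 had an unadjusted p under 0.05 with a positive log2 fold change, beside 4.35% of all tested genes. None of the 10 passed the adjusted threshold in the quasi-likelihood test. The groups lay apart for 4 of them, beside 2.72% of all tested genes with MGL KO higher. Fos, which is in this list, is among the genes that the study listed as differing in these same libraries, so its values are not independent evidence. MGL KO 1 had the highest value of both this sum and Socs3. The sum of 8 glucocorticoid response genes was 611.6 to 842.9 in MGL KO and 427.2 to 708.6 in WT libraries. The part of either list in the values of Socs3 was not tested. Filip1l, Sorbs3 and Acvr1 had the profiles most like that of Socs3, at a root mean square difference of 0.114, 0.121 and 0.128, where the SD of Socs3 was 0.332 (log2 CPM, 8 libraries).

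Socs2 (chromosome 10, 95219523 to 95253929, reverse strand), the inhibitor of growth hormone signaling, had the largest log2 fold change of the 9 tested genes. It was at 17.8, 23.3, 20.7 and 44.2 normalized CPM in MGL KO 1 to 4 and at 13.1, 10.7, 17.2 and 14.6 in WT 1 to 4. The groups lay apart by a small margin, between 17.8 in MGL KO 1 and 17.2 in WT 3, and MGL KO 4 was far above the other 7 libraries. The means were 26.5 ± 12.04 in MGL KO and 13.9 ± 2.701 in WT esophagi (SD, n = 4). Its log2 fold change was 0.93 (standard error 0.29, 95% confidence interval 0.27 to 1.59), with an unadjusted p of 0.0108 and an adjusted p of 0.495 from the quasi-likelihood test. Without MGL KO 4, the library with the airway genes, it was 0.57 with an unadjusted p of 0.0133, and the groups still lay apart. With upper quartile factors they overlapped. Socs2 shares exon bases with 2310039L15Rik and 5730420D15Rik on the opposite strand, so reads of these genes could not be told apart if strand was not used.

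Cish (chromosome 9, 107173225 to 107179983, forward strand), with the 2 matches in its promoter, differed more among WT libraries than between the genotypes. It was at 7.16, 7.94, 8.32 and 10.5 normalized CPM in MGL KO 1 to 4 and at 10.9, 5.71, 11.4 and 4.17 in WT 1 to 4. WT 1 and WT 3 were above all MGL KO libraries and WT 2 and WT 4 below all of them. The coefficient of variation was 45.4% in WT and 16.6% in MGL KO libraries, a difference that was not tested. For Cish, the log2 fold change of 0.07 (95% confidence interval -0.67 to 0.82, adjusted p = 0.958) moved between -0.14 and 0.30 when a library was left out, with negative values without MGL KO 4, WT 2 or WT 4. The closest profiles were those of Zfp653, Akap17b and 1500015A07Rik, at a root mean square difference of 0.228, 0.232 and 0.264 beside an SD of Cish of 0.493 (log2 CPM, 8 libraries).

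Socs1, an inhibitor of interferon and cytokine receptors (chromosome 16, 10600104 to 10603875, reverse strand), was at 2.08, 1.99, 2.34 and 1.91 normalized CPM in MGL KO 1 to 4 and at 2.90, 1.94, 2.43 and 2.48 in WT 1 to 4. WT 2 lay among the MGL KO libraries, and the other 3 WT libraries lay above them. For Socs1, the log2 fold change of -0.23 (95% confidence interval -0.75 to 0.29) had an adjusted p of 0.777 and rests on 22 to 52 counts per library. Per exon length, Socs7 had the highest level of the 8 SOCS family genes with 17.3 ± 2.35 normalized CPM per kilobase (SD, n = 8), followed by Socs3. Socs3 made up 26.1% to 34.8% of the family's summed level in MGL KO and 23.3% to 27.5% in WT libraries. Socs1 made up 1.03% to 1.44% in MGL KO and 1.46% to 2.06% in WT libraries. These shares sum to a fixed total, so that a larger share of 1 gene lowers those of the others.

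The rest of the pathway was read from 67 other genes in 7 lists, of which 58 could be tested. Their median log2 fold change was 0.03, with 31 positive and 27 negative values, and 1 gene, Serpina3n, passed the adjusted threshold. An unadjusted p under 0.05 was found for 9 of the 58 genes with a positive and 4 with a negative log2 fold change, beside 4.35% and 4.29% of all tested genes. The groups lay apart for 5 of the 58 that were higher and 1 that was lower in MGL KO esophagi, beside 2.72% and 3.3% of all tested genes.

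**Figure D4:**
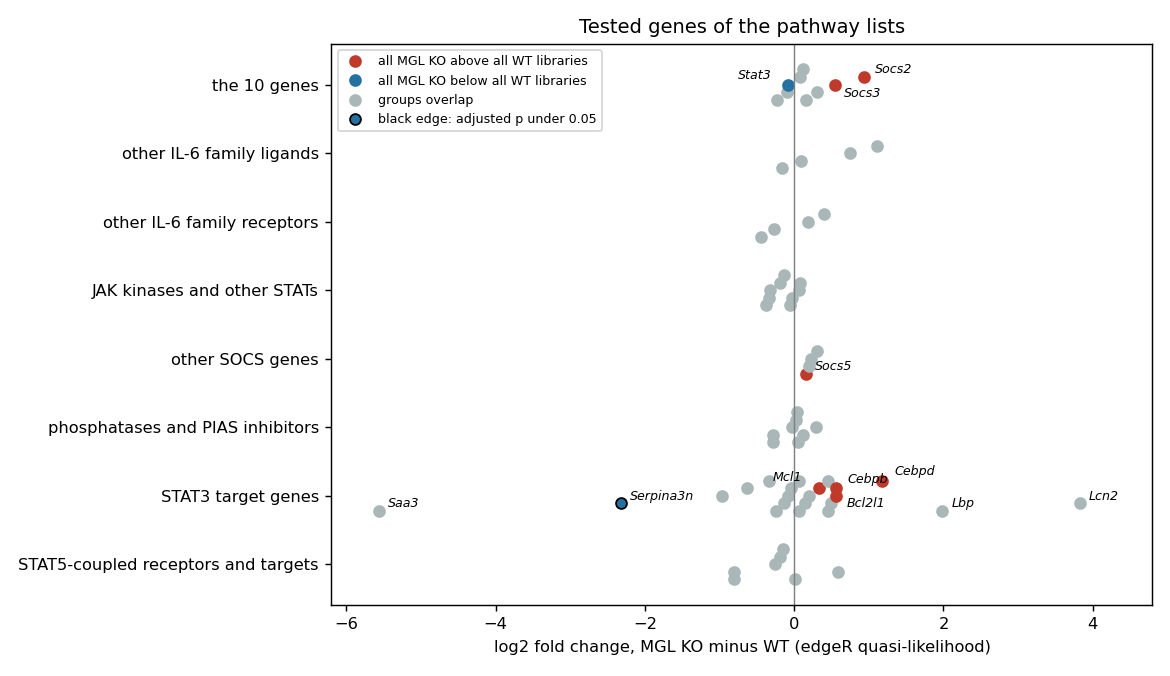
Log2 fold change (horizontal axis, MGL KO minus WT) of every tested gene, 1 point each, in the 10 genes and in 7 lists of other pathway genes; red and blue points are genes whose groups do not overlap, and a black edge marks an adjusted p under 0.05. Serpina3n is the 1 point with a black edge, at -2.32, and Saa3, Lbp and Lcn2 are the other points beyond 1.5 in either direction.

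Of the 9 other ligand genes, 4 could be tested and 0 passed, and of the 5 other receptor genes 4 could be tested and 0 passed. Ctf1, the gene for cardiotrophin-1, had a log2 fold change of 0.09 (adjusted p = 0.871), and Clcf1 had the lowest value, -0.16 (adjusted p = 0.906). Il31 had 0 counts in all 8 libraries, and Osm, the ligand of OSMR, was at 1.00 normalized CPM or less in each library. The receptor gene Il11ra1 had a log2 fold change of 0.18 (adjusted p = 0.665), and the values ranged from -0.45 for Il27ra to 0.40 for Cntfr. Lifr, named after its value was seen, was the 1 receptor of the 4 tested with an unadjusted p under 0.05 (0.0401), with a log2 fold change of -0.27 and an adjusted p of 0.561.

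None of the 9 tested genes for Janus kinases and other STATs had an unadjusted p under 0.05, and 7 of the 9 log2 fold changes were negative, with a median of -0.14. Jak1, the main kinase of gp130, was at -0.03 (adjusted p = 0.935), and Jak3 was lowest at -0.37 (adjusted p = 0.735). Per exon length, Stat3 had the highest level of the 7 STAT genes, followed by Stat5b with 14.3 ± 1.36 and Stat6 with 14.1 ± 2.10 normalized CPM per kilobase (SD, n = 8). Of 8 phosphatase and PIAS genes, 1 had an unadjusted p under 0.05, beside 8.65% of all tested genes, a share near that of the list. This was Ptpn11, the gene for the phosphatase SHP2 that docks on gp130, with a log2 fold change of 0.29 (unadjusted p = 0.0481, adjusted p = 0.578). Pias3, an inhibitor of STAT3, had the lowest value at -0.28 (adjusted p = 0.711).

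All 4 other SOCS genes had a positive log2 fold change, from 0.16 for Socs5 to 0.30 for Socs4, and 0 passed the threshold. Socs5 was at 23.1, 25.5, 22.6 and 22.7 normalized CPM in MGL KO 1 to 4 and at 19.9, 21.4, 20.4 and 22.6 in WT 1 to 4. Its groups lay apart by a margin that the rounded values hardly show, and the adjusted p was 0.675. Socs7 had a log2 fold change of 0.19 (adjusted p = 0.682). Of the 9 genes for STAT5-coupled receptors and targets, 7 could be tested and 0 passed. They ranged from -0.80 for Il2rg to 0.58 for Bcl6, a STAT5-regulated repressor (adjusted p = 0.732 and 0.603).

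The 22 STAT3 target genes did not move 1 way: 13 log2 fold changes were positive and 9 negative, with a median of 0.10. An unadjusted p under 0.05 was found for 7 of the 22 with a positive and 3 with a negative log2 fold change, beside 4.35% and 4.29% of all tested genes. Serpina3n, which encodes a secreted protease inhibitor of the acute phase, fell from 74.8, 102.4, 96.8 and 178.0 normalized CPM in WT 1 to 4 to 31.4, 19.0, 21.5 and 18.4 in MGL KO 1 to 4. Every MGL KO library was under every WT library, and WT 4 was the highest. The log2 fold change was -2.32 (standard error 0.29, adjusted p = 0.0494), beside 0.0269% of all tested genes called lower. The direction was the same in all alternatives, but the call was lost with 7 of the 8 libraries left out in turn, with adjusted p-values from 0.0846 to 0.222. With all libraries kept it was lost in several settings, among them the robust fit (adjusted p = 0.0523), no filter (0.0574) and library size alone (0.0743). Of the fits with 1 library left out, Serpina3n passed in that without WT 4 (log2 fold change -2.01, adjusted p = 0.0428).

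The groups also lay apart for 4 target genes that were higher in MGL KO esophagi, or 4 of 22, beside 2.72% of all tested genes, and none of the 4 passed the adjusted threshold. Cebpd, a transcription factor gene of the acute phase, was at 44.3, 64.9, 62.6 and 55.8 normalized CPM in MGL KO 1 to 4 and at 21.4, 18.0, 19.3 and 41.9 in WT 1 to 4. WT 4 was the one WT library near the MGL KO range. The log2 fold change of 1.18 had an adjusted p of 0.359, and without WT 4 it was 1.54 with an adjusted p of 0.0428. The glucocorticoid response sum was also highest of the WT libraries in WT 4, at 708.6 normalized CPM against 427.2 to 465.8, and its part in Cebpd, like that of the immediate early genes, was not tested. Bcl2l1, the gene for the survival protein Bcl-xL, was at 48.9, 46.0, 52.1 and 58.5 normalized CPM in MGL KO 1 to 4 and at 36.4, 30.8, 33.3 and 38.9 in WT 1 to 4. The groups were well separated, with a log2 fold change of 0.56 (adjusted p = 0.262). Cebpb and Mcl1, a related transcription factor and another survival gene, had log2 fold changes of 0.57 and 0.33 (adjusted p = 0.478 and 0.542). The exact test of edgeR on the filtered genes, which called 64 genes in all, called Bcl2l1, Cebpd, Saa3 and Serpina3n, as DESeq2 did. Serpina3n and Cebpd are among the genes that the study listed as differing in these same libraries, so their values are not independent evidence.

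**Figure D5:**
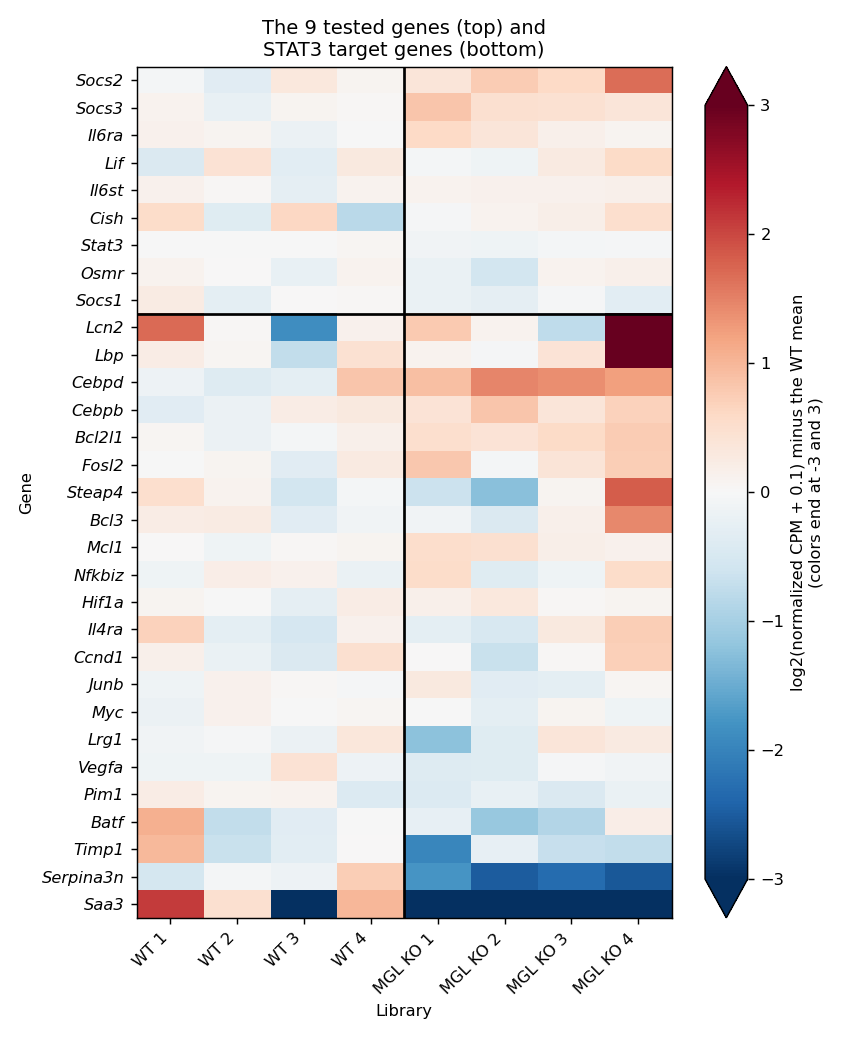
Log2(normalized CPM + 0.1) minus the mean of the 4 WT libraries (color, red higher and blue lower, ending at -3 and 3) for the 9 tested genes (top) and the 22 STAT3 target genes (bottom) in each library. Lcn2 and Lbp are dark red in MGL KO 4 alone, Serpina3n is blue in all 4 MGL KO libraries, and Saa3 is dark blue in the 4 MGL KO libraries and in WT 3.

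Saa3, an acute phase gene, was at 1.35, 0.09, 1.11 and 3.03 normalized CPM in MGL KO 1 to 4 and at 154.8, 50.1, 2.96 and 71.5 in WT 1 to 4. WT 3 was as low as the MGL KO libraries, so the groups overlapped, and the log2 fold change of -5.56 had an adjusted p of 0.262. It lay between -6.24 and -4.83 with any 1 library left out, and Saa3 passed the adjusted threshold in DESeq2 (adjusted p = 0.000559) and in both exact tests. The macrophage sum was 104.2 to 130.8 normalized CPM in MGL KO and 123.1 to 370.4 in WT libraries, was lowest among WT libraries in WT 3, and all 5 genes had an unadjusted p under 0.05 with a negative log2 fold change, beside 4.29% of all tested genes, while 0 passed the adjusted threshold. The median log2 fold change of the 5 was -0.86, and without WT 1 it was -0.46. With any 1 library left out, 2 to 5 of the 5 had such a p, with 2 without MGL KO 1 or WT 1 and 3 without MGL KO 3 or WT 4. The 5 fibroblast and 4 endothelial genes also all had negative log2 fold changes, with medians of -0.35 and -0.17. Of these, 2 fibroblast genes and 1 endothelial gene had an unadjusted p under 0.05, beside 4.29% of all tested genes. All 4 adipocyte genes and all tested airway genes (5 ciliated, 1 secretory) had positive log2 fold changes. The part of the macrophage genes or of these other lists in Saa3 and Serpina3n was not tested. Lcn2, which encodes an iron-scavenging protein of epithelia and neutrophils, was at 226.9 normalized CPM in MGL KO 4 and between 0.72 and 9.71 in the other 7 libraries. Its log2 fold change of 3.82 (adjusted p = 0.560) turned to -0.33 without MGL KO 4. Lbp, the gene for lipopolysaccharide-binding protein, was at 119.6 in MGL KO 4 and between 5.46 and 12.5 elsewhere, and its log2 fold change went from 1.99 to 0.12 without that library.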

How the data were processed

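Poly(A)-selected RNA of frozen mouse esophagi was sequenced by the authors, trimmed with Cutadapt and aligned to GRCm39 with STAR 2.7.10b (submitters' processing notes). They deposited whole-number counts per gene symbol and library, without normalization. The annotation, the counter and its use of strand are not given in the sources used here. All columns of counts belonged to the 8 libraries of the study.

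The filterByExpr step of edgeR 4.0.16 in R 4.3.3, with a minimum count of 10, retained 14864 of 22721 symbols with a count and 98.1% to 99.9% of each library's counts. Normalized CPM used library sizes over these genes and TMM factors (0.82 to 1.11). The genotypes were compared by the quasi-likelihood test of edgeR, with p-values adjusted by Benjamini-Hochberg over all tested genes at 0.05. Standard errors were derived from the log2 fold change and the F statistic, as their ratio after taking the root of F. Exact permutation tests were two-sided, on log2(CPM + 0.1). Replicates were compared first, and no pair was alike within sampling noise.

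Exon lengths and positions came from GENCODE mouse release 39 (GRCm39), and promoters from RefSeq (GRCm38.p6). Genes named were the 10 genes, Mgll, and, of each list of pathway genes, those called or with groups lying apart, the gene with the highest CPM and the largest rise and fall, plus the closest profiles of Stat3, Socs3 and Cish. Some genes that this rule names are not reported here. The genes and lists were chosen with earlier results of these data known. Alternatives were edgeR's exact test on filtered genes and on all genes with a count, DESeq2 1.42.0, and voom of limma 3.58.1 with quality weights. Further ones were a robust fit, other scaling factors, other filters, a replicate block, and leaving out each library. The study also used edgeR's exact test, but over its own set of genes, so its list of genes need not match those given here. Leaving out MGL KO 4 and WT 1 together was chosen after seeing the data.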

Additional observations from a re-analysis of the deposited data

Results flagged for a closer look

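In groups of 4 libraries, 11 of the 67 groups of values with more than 3 counts in some library had 1 library far from the other 3 (by Dixon's test of the gap over the range at the 95% level), where chance gives about 3.35. Il6 in MGL KO, at 0.0562 normalized CPM from 1 count in MGL KO 4 and at 0 in the others, is left out of these, since 1 count against 0 is within counting error. Among the 10 genes, Stat3 was far from its group in WT 4, at 184.7 normalized CPM against 175.7 to 176.5 in the other WT libraries. The sum of the other IL-6 family ligands was 28.6 normalized CPM in MGL KO 4, and that of Janus kinases and other STATs was low in MGL KO 2 at 446.4.

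MGL KO 4 was also far above its group in the sums of airway secretory (7721 normalized CPM), airway ciliated (464.2), neutrophil (13.04) and T cell (4.83) markers. WT 1 was high in T cell (13.4) and eosinophil (2.06) markers, among which Epx had 0 counts in all 8 libraries. WT 3 was low for its group in basal squamous markers (2347), though MGL KO 2 was lower still (2197). WT 4 was high in glucocorticoid response genes (708.6).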

How the results depend on the processing

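No alternative with all libraries kept turned the sign of a log2 fold change of the 9 tested genes, except limma-voom for Lif (-0.037). Among fits without 1 library, the value ranged from -0.013 to 0.32 for Lif, from -0.19 to 0.031 for Osmr and from -0.14 to 0.30 for Cish, and Lif was at -0.15 with both MGL KO 4 and WT 1 left out. The count of the 10 genes past the adjusted threshold was 0 in 19 of 20 alternatives and 1 in DESeq2 (Socs3). The number with groups lying apart was 1 with library size alone, and 3 to 4 with a library left out.

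Of all genes, 7 passed in the main test, 64 in the exact test with the filter, 42 without it, 133 in DESeq2, 25 in limma-voom, 2 in the robust fit, 2 when no filter was applied, 2 with both libraries left out, and 2 to 5 with 1 library left out. Of the other pathway genes, 1 passed in the main test, 4 in the exact test with the filter, 3 without it, 4 in DESeq2, 0 with library size alone, in the robust fit, when no filter was applied or with both libraries left out, and 0 to 2 when a single library was dropped. The cause of these shifts was not tested.

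Same-numbered libraries did not deviate together (correlations of deviations from -0.31 to 0.05), and the main test did not use the numbers as a block. These correlations cannot show that the numbers carry no pairing. With the replicate number as a block, 2 genes passed in all, 0 of them among the 10 genes and 0 among the other pathway genes, where Serpina3n had an adjusted p of 0.502.

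Depth limited Il6 most, with at most 5 counts in a library, and left Lif and Socs1 at 20 to 54 counts.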
